A study of Homo sapiens with 6 samples.

Results

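The p53 target genes described here are a list of 32 human genes known as transcriptional targets of p53 or as its feedback partners. They were read through the probe sets that the platform annotation assigned to 1 of them alone and whose highest log2 signal on the 6 arrays was over 6.64, a signal of 100. Of the 32 genes, 30 had a named probe set, and 37 of their 83 probe sets, from 24 genes, passed the limit, among 16409 of 54675 probe sets in the whole table. A further 46 probe sets lay at or below the limit, 6 genes had no probe set above it, and BTG2 and FDXR were not analysed here.

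The arrays were Affymetrix U133 Plus 2.0 arrays of RNA from the human osteosarcoma lines KHOS and U-2OS. KHOS derives from the HOS line by transformation with a Kirsten sarcoma virus and carries mutant p53, whereas U-2OS carries wild-type p53; this is background on the lines and was not measured here. In each line there was 1 array of cells with siRNA against CDK11, a cyclin-dependent kinase, at 40 nM, 1 array of cells with nonspecific siRNA at 40 nM and 1 array of untransfected cells, and each array held the pooled RNA of 3 flasks. RNA was collected 48 h after transfection. With 1 array per condition and 1 line of each p53 status, p53 status cannot be told apart from any other difference between KHOS and U-2OS, and in bulk RNA fewer cells with a transcript and less of it per cell cannot be told apart.

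p53 is a transcription factor that cells stabilise after DNA damage and other stress. It binds paired decamers in the DNA near its targets, and these act in cell cycle arrest, DNA repair, apoptosis, metabolism and the feedback that destroys p53 again. Most mutations of p53 in tumours fall in the DNA-binding domain and weaken this binding. The feedback gene MDM2 encodes the ubiquitin ligase that marks p53 for degradation, so wild-type p53 is held low in unstressed cells.

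The 6 arrays were alike in overall signal, with medians between 2.92 and 2.98 on the log2 scale and 24.9% to 25.9% of probe sets above the limit. Of 8 osteoblast and mesenchymal markers with a probe set, 4 were above the limit in KHOS and 4 in U-2OS, RUNX2, COL1A1, SPARC and VIM in both, while ALPL, SP7 and COL1A2 stayed near the lowest signals. RUNX2 passed in U-2OS on the untransfected array alone, at 7.03, against 9.51 to 10.24 in KHOS. Of 7 epithelial markers, 3 were above the limit in KHOS and 2 in U-2OS, the keratin genes KRT8 and KRT18 in both and EPCAM in KHOS. CDH1, KRT19, CLDN4 and ESRP1 were below it in both lines, and none of 4 blood markers was above it. The probe sets for CDK11 were assigned to both CDK11A and CDK11B, and all 5 were lower with CDK11 siRNA than on either control array of the same line. The brightest retained 20.6% of its nonspecific siRNA signal in KHOS and 16.0% in U-2OS.

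To compare the levels of p53 targets in the 2 lines, KHOS was set against U-2OS in limma with the transfection as a block, so that the 3 arrays of a line served as its replicates. The targets were mostly lower in KHOS. Of the 37 probe sets, 23 from 16 genes were lower in KHOS at an adjusted p of 0.05, or 62.2%, against 32.6% of all 16409 probe sets. Only 5 from 4 genes were higher, or 13.5%, against 39.5% of all probe sets. The median difference of KHOS minus U-2OS was -0.85 over the target probe sets, with 30 of 37 below 0. Over all probe sets the median was 0.098, with 54% above 0. Since a probe set could pass the limit through 1 line alone, the counts cover the probe sets that passed and not the whole list. Above the limit in both lines were 31, in U-2OS alone 5 and in KHOS alone 1. With the limit applied to both lines 18 of the 31 were lower in KHOS and 4 higher, with a median of -0.69. Of all 12882 probe sets in that setting 4166 were lower and 4813 higher, with a median of 0.058. With no limit, when most added probe sets are dim, the median of the targets was -0.13.

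The direction did not rest on 1 transfection. The median of the target probe sets was -0.70 between the CDK11 siRNA arrays, -0.63 between the nonspecific siRNA arrays and -0.80 between the untransfected arrays. The arrays of the 2 lines did not overlap for 28 of the 37 probe sets. Overlap was not counted over all probe sets, so this is not read as particular to the targets. Among all 16409, limma called 11837 between the lines. By size, 11 probe sets of 10 genes, or 29.7%, were at least 1 log2 unit lower in KHOS for all 3 transfections, against 12.5% of all probe sets. At least 1 unit higher were 3 probe sets of 2 genes, or 8.11%, against 18.1%. The lower ones include CYFIP2 and both FAS probe sets, which passed the limit through U-2OS alone. The higher ones include TP53INP1, which passed through KHOS alone. Their direction is thus partly set by the limit, and the size count was not made with the limit applied to both lines. With the transfection as a block, these p-values measure whether the lines differed beyond the variation of their difference between the 3 transfections. A probe set could therefore pass although the arrays of the lines overlapped. An exact permutation test of 3 arrays against 3 that ignores the block cannot go below 0.1.

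**Figure D1:**
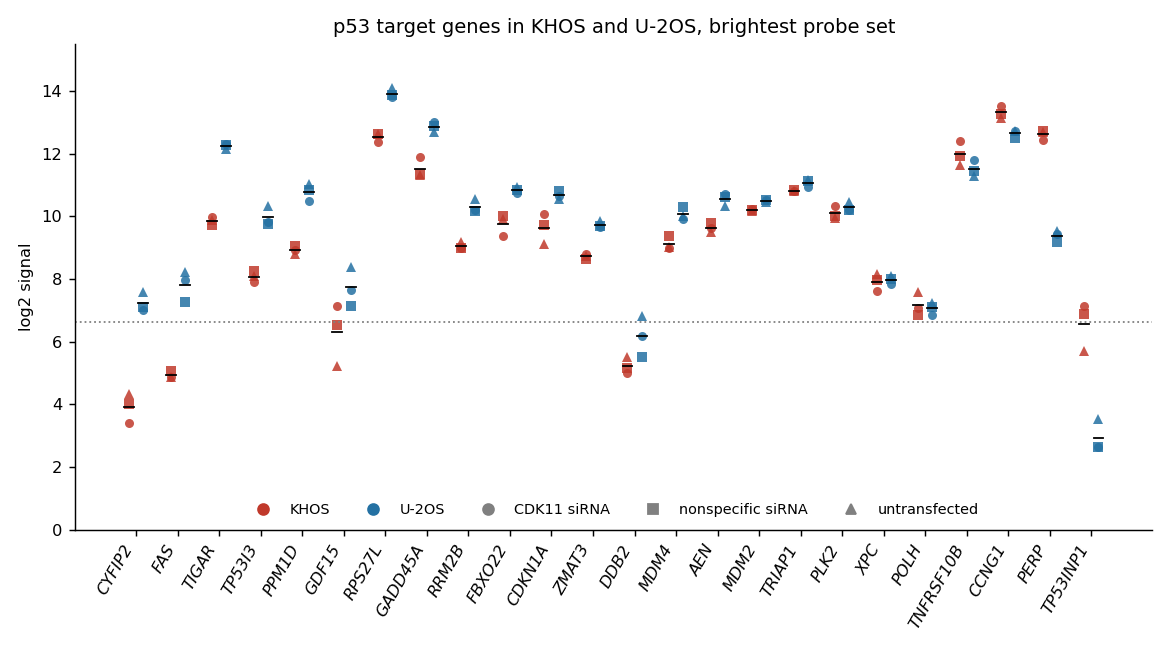
Log2 signal (vertical axis) of the brightest probe set of the 24 target genes on each array, KHOS in red left of U-2OS in blue, with symbols for the 3 transfections, a bar for the mean of a line and a dotted line at the limit of 6.64. The red points lie below the blue ones for most genes, and above them for CCNG1, PERP and TP53INP1.

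Among genes for cell cycle arrest and its restraint, CDKN1A and GADD45A were lower in KHOS and CCNG1 was higher. CDKN1A, which encodes the cyclin-dependent kinase inhibitor p21, had log2 levels of 10.07, 9.73 and 9.11 in KHOS with CDK11 siRNA, with nonspecific siRNA and untransfected, against 10.64, 10.81 and 10.56 in the same order in U-2OS. All 3 KHOS levels were under all 3 of U-2OS, and the untransfected KHOS array was the lowest. The difference was -1.03 (SE 0.19, limma adjusted p = 0.0064), or 2.05-fold lower in KHOS, and the KHOS mean of 9.64 ± 0.49 had the wider spread beside 10.67 ± 0.13 in U-2OS (SD, n = 3 each). With no filter on low signals it missed the threshold (adjusted p = 0.055).

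GADD45A, a growth arrest protein induced by DNA damage, had levels of 11.89, 11.35 and 11.33 in KHOS against 12.995, 12.89 and 12.68 in U-2OS. No KHOS array reached the lowest U-2OS array, and the difference was -1.33 (SE 0.12, adjusted p = 0.00066). CCNG1, which encodes cyclin G1, a partner of the phosphatase that acts on MDM2, went the other way, with 13.52, 13.28 and 13.14 in KHOS against 12.72, 12.49 and 12.74 in U-2OS. Here all KHOS arrays were above all U-2OS arrays, by 0.67 (SE 0.13, adjusted p = 0.0072). The polo-like kinase gene PLK2, at 10.10 ± 0.20 in KHOS and 10.29 ± 0.14 in U-2OS, overlapped between the lines and did not pass (adjusted p = 0.29).

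The feedback genes differed among themselves. PPM1D encodes the phosphatase WIP1, which switches off the damage signal to p53. Its levels were 8.91, 9.05 and 8.81 in KHOS against 10.48, 10.83 and 11.05 in U-2OS. The KHOS arrays lay within 0.24 of each other and well under U-2OS, and the difference was -1.86 (SE 0.16, adjusted p = 0.00051).

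MDM2 stood at nearly equal levels, 10.24, 10.20 and 10.16 in KHOS against 10.53, 10.51 and 10.45 in U-2OS for its brightest probe set. These groups did not overlap, though the difference was only -0.30 (SE 0.09, adjusted p = 0.038), and it no longer passed when any 1 of the transfections was left out (adjusted p from 0.094 to 0.16). A second MDM2 probe set had the opposite sign, 0.24, and did not pass (adjusted p = 0.15). MDM4, the partner of MDM2 that also masks p53, had 1 probe set lower in KHOS by 0.94 (SE 0.09, adjusted p = 0.00086), with levels of 8.98, 9.37 and 9.02 in KHOS against 9.91, 10.28 and 10.02 in U-2OS. Its other probe set averaged 8.33 in both lines (adjusted p = 0.98), so the 2 probe sets of this gene did not give the same answer.

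Among the death receptors, FAS was lower in KHOS on its brighter probe set. FAS encodes the receptor through which FAS ligand starts apoptosis. Its brighter probe set had levels of 4.86, 5.05 and 4.86 in KHOS, all below the limit, against 7.96, 7.27 and 8.21 in U-2OS, all above it. The probe set thus passed through U-2OS alone. Counting the KHOS arrays at the limit, since dim signals carry only a bound, FAS was at least 2.26-fold lower in KHOS. The limma adjusted p of 0.00049 is for the measured difference and does not test this bound.

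The second FAS probe set had 3.36, 3.28 and 2.29 in KHOS against 6.22, 4.84 and 6.64 in U-2OS. It passed the limit through 1 array alone, untransfected U-2OS at 6.641, and no fold is given, as the means of both lines lay below the limit. Just inside the limit with it were DDB2, with a highest level of 6.83, and a RPS27L probe set with 6.93. Just outside were another FAS probe set at 6.638, a MDM2 probe set at 6.56 and a POLH probe set at 6.50, all 3 left out of the counts.

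TNFRSF10B encodes the TRAIL receptor DR5, and its 3 probe sets pointed in different directions. The brightest had 12.41, 11.91 and 11.64 in KHOS against 11.79, 11.45 and 11.29 in U-2OS, higher in KHOS by 0.48 (SE 0.10, adjusted p = 0.012) with overlapping arrays. Both dim probe sets were lower in KHOS. In 1 of them, with an adjusted p of 0.0029, the difference was -0.65. In the other all KHOS arrays were below the limit, from 6.18 to 6.51, against 6.77 to 7.49 in U-2OS. That one was at least 1.35-fold lower in KHOS, and its adjusted p of 0.0048 is for the measured difference. No direction for the gene is therefore given, and the cause of the split was not tested.

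PERP was higher in KHOS, and TP53INP1 rose above the limit in KHOS alone. PERP encodes a membrane protein of desmosomes and an effector of p53-dependent apoptosis. Its brighter probe set had 12.42, 12.72 and 12.70 in KHOS against 9.42, 9.17 and 9.52 in U-2OS, a difference of 3.25 (SE 0.14, adjusted p = 8.4e-05). The other had 11.43, 11.59 and 11.77 in KHOS against 8.03, 7.83 and 7.87 in U-2OS, a difference of 3.69 (SE 0.14, adjusted p = 5.5e-05). Both probe sets put the level in KHOS about an order of magnitude above U-2OS, 9.49-fold and 12.9-fold.

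TP53INP1, a stress-induced nuclear protein with roles in autophagy and cell death, had 7.12, 6.89 and 5.70 in KHOS against 2.63, 2.63 and 3.54 in U-2OS. No U-2OS array rose above the limit, and in KHOS the untransfected array was below it as well. It passed the limit through 2 KHOS arrays, and no fold is given, as the KHOS mean of 6.57 did not reach the limit either. AEN, an exonuclease that takes part in DNA fragmentation, had 9.62, 9.77 and 9.51 in KHOS against 10.71, 10.60 and 10.34 in U-2OS, and was lower in KHOS by 0.91 (SE 0.11, adjusted p = 0.0015) with no overlap.

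**Figure D2:**
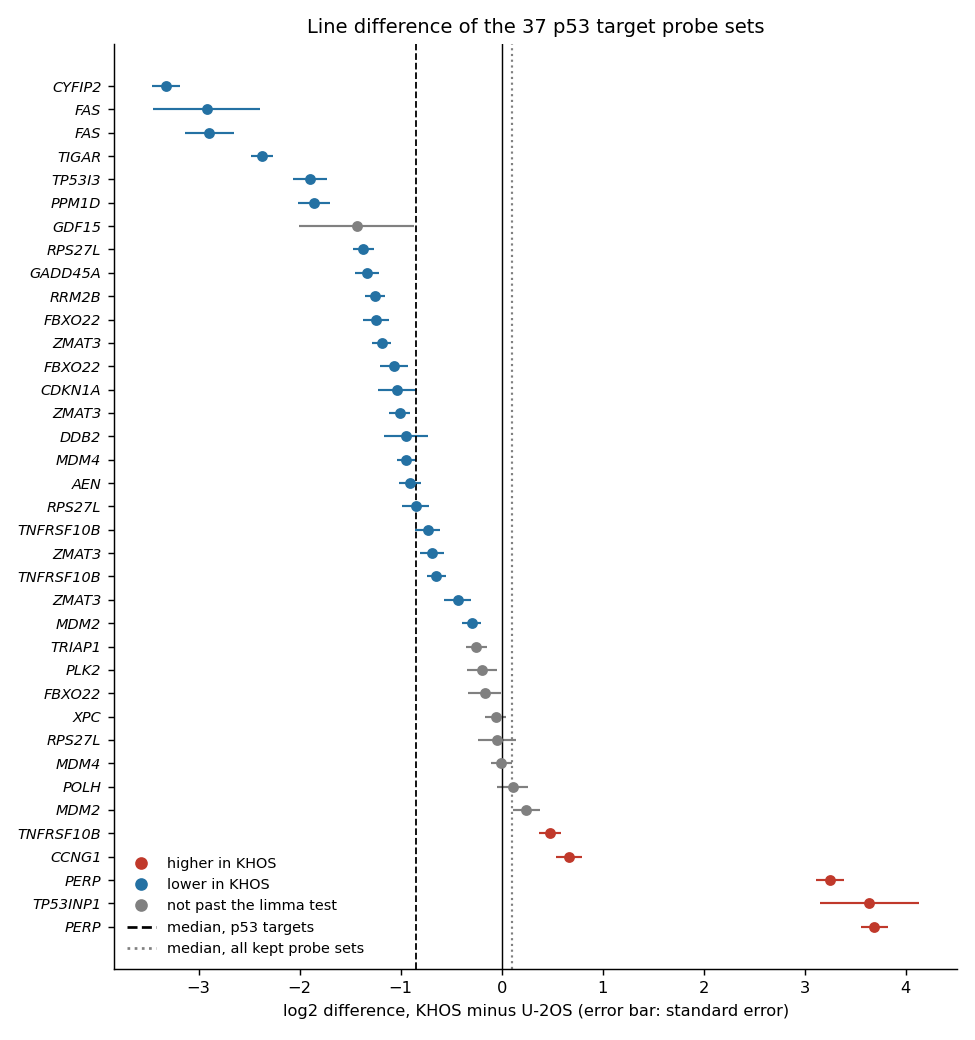
Difference of log2 signal, KHOS minus U-2OS (horizontal axis), for each target probe set with its SE, coloured by the result of limma; the dashed line is the median of the targets and the dotted line that of all probe sets. The medians stand at -0.85 and 0.098, and the 6 probe sets above the limit in 1 line only are drawn at their measured values, although their dim levels carry only a bound.

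The metabolic and redox targets were lower in KHOS. TIGAR, a phosphatase that diverts glucose from glycolysis, had 9.99, 9.72 and 9.89 in KHOS against 12.29, 12.28 and 12.15 in U-2OS. The arrays of a line lay close together, with means of 9.86 ± 0.13 in KHOS and 12.24 ± 0.08 in U-2OS (SD, n = 3 each). The difference of -2.38 (SE 0.11, adjusted p = 0.00010) was 5.19-fold. TP53I3, a quinone oxidoreductase also called PIG3, had 7.89, 8.26 and 8.09 in KHOS against 9.82, 9.77 and 10.33 in U-2OS, and its difference was -1.90 (SE 0.17, adjusted p = 0.00056).

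In nucleotide supply and repair, RRM2B differed and most others did not. RRM2B, the ribonucleotide reductase subunit that supplies deoxynucleotides outside S phase, had 8.97, 8.98 and 9.19 in KHOS against 10.21, 10.16 and 10.54 in U-2OS. No KHOS array reached the U-2OS arrays, and the difference was -1.25 (SE 0.10, adjusted p = 0.00041). DDB2, which recognises ultraviolet lesions, had 4.99, 5.17 and 5.52 in KHOS against 6.17, 5.51 and 6.83 in U-2OS. It passed the test (adjusted p = 0.014), but the arrays overlapped, only untransfected U-2OS was above the limit, so that no fold is given, and the call was lost without the CDK11 siRNA arrays (adjusted p = 0.068). XPC, another sensor of helix-distorting lesions, averaged 7.92 ± 0.27 in KHOS and 7.98 ± 0.13 in U-2OS (adjusted p = 0.63). POLH, the polymerase that copies past ultraviolet lesions, averaged 7.17 ± 0.38 in KHOS and 7.07 ± 0.19 in U-2OS (adjusted p = 0.55).

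CYFIP2 is a subunit of the WAVE complex that drives actin branching. It had 3.40, 4.002 and 4.33 in KHOS, all below the limit, against 7.02, 7.11 and 7.57 in U-2OS. It passed through U-2OS alone, and with KHOS counted at the limit CYFIP2 was at least 1.51-fold lower in KHOS. The limma adjusted p of 7.2e-05 is for the measured difference and does not test this bound. RPS27L, a paralogue of ribosomal protein S27, had 12.38, 12.63 and 12.63 in KHOS against 13.81, 13.87 and 14.08 in U-2OS on its brightest probe set, a difference of -1.37 (SE 0.10, adjusted p = 0.00036). Its second probe set was lower by 0.85 (adjusted p = 0.0039) and the other, near the limit, differed by -0.046 (adjusted p = 0.84).

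FBXO22, the receptor subunit of a ubiquitin ligase, had 9.37, 10.02 and 9.92 in KHOS against 10.74, 10.83 and 10.94 in U-2OS on its brightest probe set, a difference of -1.07 (SE 0.14, adjusted p = 0.0021). A second probe set gave -1.25, with 8.04, 8.62 and 8.69 in KHOS against 9.55, 9.76 and 9.77 in U-2OS, while the remaining one gave -0.17 with overlap (adjusted p = 0.39). ZMAT3, a zinc finger protein that binds RNA, was lower in KHOS on all 4 of its probe sets, by 0.44 to 1.19. Its brightest had 8.79, 8.65 and 8.73 in KHOS against 9.66, 9.70 and 9.85 in U-2OS (-1.01, SE 0.10, adjusted p = 0.00096). The probe set with the largest difference had 7.39, 7.17 and 7.30 in KHOS against 8.56, 8.34 and 8.52 in U-2OS.

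Some members separated the lines without passing, or not at all. GDF15, a secreted stress cytokine, had 7.13, 6.54 and 5.22 in KHOS against 7.66, 7.15 and 8.39 in U-2OS. The highest KHOS array stayed just under the lowest U-2OS array and the difference was -1.44, but with an SE of 0.57 it did not pass (adjusted p = 0.074). Without the untransfected arrays the difference shrank to -0.57 and passed (adjusted p = 0.017). TRIAP1, a small mitochondrial survival protein, averaged 10.82 ± 0.03 in KHOS and 11.07 ± 0.12 in U-2OS (adjusted p = 0.079). In all, 9 probe sets did not pass, and GDF15, PLK2, POLH, TRIAP1 and XPC had no probe set that did.

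By gene, 15 of the 24 were lower in KHOS on every probe set that passed, CCNG1, PERP and TP53INP1 were higher and TNFRSF10B had both directions. By brightest probe set, 15 of the 24 were lower and 4 higher, beside 2960 lower and 3404 higher of all 8881 genes. In CYFIP2, FAS, DDB2 and TP53INP1 these calls rest on a line whose levels were below the limit. CYFIP2, FAS, TIGAR, TP53I3, PPM1D, RPS27L, GADD45A, RRM2B, FBXO22, ZMAT3, PERP and TP53INP1 were given in full by the rule on size, and the other members named with values on each array were added after their values were seen. Levels were compared within a probe set only, since brightness also depends on the probes.

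The 6 genes with no probe set above the limit were EDA2R, PHLDA3, PLK3, SESN1, SPATA18 and TNFRSF10C. PHLDA3, an inhibitor of AKT, came closest to the pattern of the list, with 3.47, 3.46 and 3.998 in KHOS against 5.84, 6.31 and 5.57 in U-2OS. The brighter PLK3 probe set had 6.27, 6.12 and 5.91 in KHOS against 5.13, 4.63 and 5.12 in U-2OS. SESN1, a sestrin that restrains mTORC1, had 6.20, 5.76 and 5.77 in KHOS against 5.72, 5.32 and 5.73 in U-2OS. None of these signals is read as a difference, as all lay below the limit. EDA2R and TNFRSF10C, a receptor and a decoy receptor of the TNF receptor family, and SPATA18, which acts in mitochondrial quality control, stayed between 2.34 and 3.12 on all arrays.

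The promoters of the list were searched for the half-site decamer of p53, by its consensus on both strands, in the RefSeq sequences of 250 bases before to 50 after each start (build GRCh38.p14). Of 25 members with a promoter in the table, 7 held at least 1 decamer, or 28%, against 2202 of 27305 genes, or 8.06%. Of the 19 members above the signal limit, 5 did, or 26.3%: AEN, DDB2, FAS, PLK2 and RPS27L. The 4 stretches below are shown because their genes hold the decamer before the start. FAS, RPS27L and AEN were lower in KHOS, PLK2 did not differ beyond its spread, and the capitals mark the decamer.
FAS: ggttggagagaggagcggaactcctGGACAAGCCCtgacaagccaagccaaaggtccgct
RPS27L: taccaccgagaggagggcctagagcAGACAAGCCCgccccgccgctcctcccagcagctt
AEN: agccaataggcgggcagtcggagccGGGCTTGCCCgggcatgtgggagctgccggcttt
PLK2: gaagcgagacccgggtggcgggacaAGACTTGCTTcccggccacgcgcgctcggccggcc

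These lie at chr10:88991284-88991343 (plus strand) for FAS, chr15:63157502-63157561 (minus strand) for RPS27L, chr15:88621281-88621339 (plus strand) for AEN and chr5:58460184-58460243 (minus strand) for PLK2. The decamer began at position -122 from the start in FAS, -59 in RPS27L, -34 in AEN and -132 in PLK2, where -1 is the base before the start. A single decamer is only one side of a p53 site and a match is a description of the letters. CYFIP2 and PERP held no decamer in these windows.

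The next comparison asks what CDK11 siRNA did to these genes. The threshold was 3 SD of the log2 differences of CDK11 siRNA from nonspecific siRNA over all probe sets of a line. In KHOS, none of the 37 target probe sets lay beyond it, against 1.38% of all probe sets. In U-2OS 1 did, or 2.7%, against 1.87%. With 1 array each there is no test within a line, and the list moved about as often as the background. Across the targets the differences spanned -0.70 to 0.59 in KHOS, and -0.77 to 1.38 was their span in U-2OS. Their medians were -0.11 in KHOS and 0.023 in U-2OS, beside 0.0096 and 0.014 over all probe sets.

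The probe set beyond 3 SD in U-2OS was the dimmer one of FAS. Its level of 6.22 with CDK11 siRNA stood 1.38 above the 4.84 with nonspecific siRNA, but 0.42 below the 6.64 of untransfected cells. The brighter FAS probe set had the same shape in U-2OS, 0.69 above nonspecific siRNA and 0.24 below untransfected. On both probe sets the nonspecific siRNA array was thus the lowest in U-2OS, and with 1 array each the reason was not tested. At a limit of 6.6439 in place of 6.64 the dimmer probe set would not have been counted.

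With both lines as replicates, limma called none of the 16409 probe sets between CDK11 siRNA and nonspecific siRNA (0%), members included. At an unadjusted p of 0.05 it had 2338 of all probe sets, or 14.2%, and 4 of the 37 targets, and the smallest adjusted p of a target was 0.28. The 4 were MDM4, RPS27L and TNFRSF10B on 2 probe sets. Against untransfected cells it again called none, with 3160 or 19.3% at an unadjusted p of 0.05, 8 targets among them, and a smallest adjusted p of 0.12 in a target. With a prior that follows the level it called 575 probe sets against untransfected cells, 1 of them a target.

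The 3 TNFRSF10B probe sets that passed the limit were on 1 side of both controls. This gene was picked after its values were seen, and how often other genes did so was not counted. A further probe set below the limit differed from nonspecific siRNA by -0.022 in KHOS and -0.30 in U-2OS, and is left out of what follows. With CDK11 siRNA the 3 probe sets were above nonspecific siRNA by 0.49, 0.19 and 0.32 in KHOS and by 0.35, 0.54 and 0.38 in U-2OS. Against untransfected cells the differences were 0.76, 0.34 and 0.63 in KHOS, while 0.51, 0.72 and 0.70 were found in U-2OS. All were positive, yet none of the 3 probe sets passed the adjusted test over both lines (adjusted p = 0.28, 0.38 and 0.30 against nonspecific siRNA). With a prior that follows the level, the brightest probe set passed against untransfected cells, 0.63 above them over both lines (adjusted p = 0.021). The nonspecific siRNA arrays were themselves above the untransfected ones by 0.15 to 0.32 in both lines.

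FBXO22 with CDK11 siRNA stood below nonspecific siRNA in KHOS on all 3 probe sets, by 0.65, 0.58 and 0.67, and in U-2OS the same differences were -0.094, -0.21 and 0.013. Whether this effect differed by line was not tested, as no array is left to measure its error. CDKN1A was 0.34 above nonspecific siRNA in KHOS and 0.17 below it in U-2OS, and MDM2 differed by 0.043 in KHOS and 0.020 in U-2OS on its brightest probe set. Neither passed over both lines (adjusted p = 0.90 for CDKN1A and 0.93 for MDM2).

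**Figure D3:**
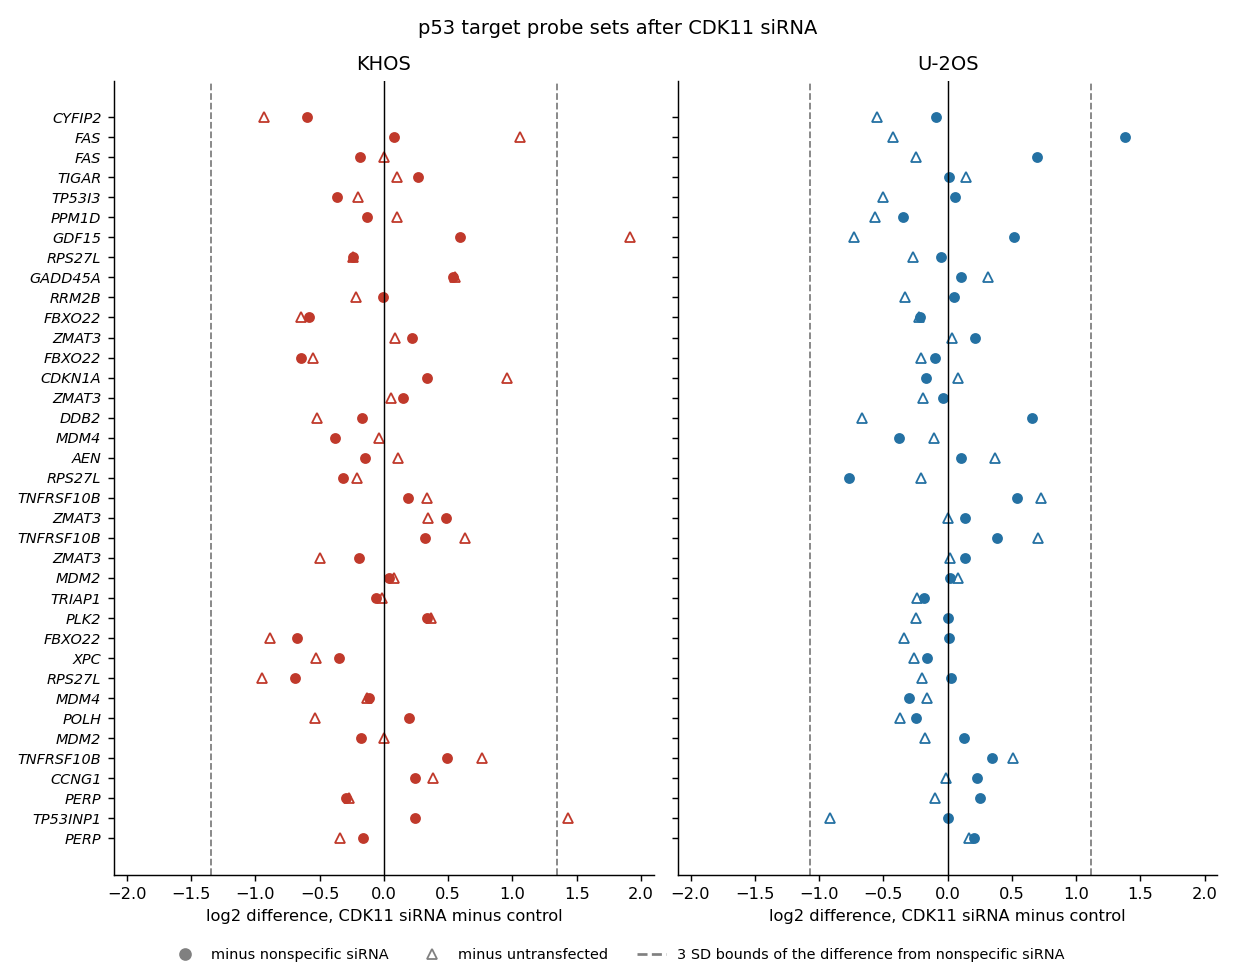
Log2 difference of CDK11 siRNA from nonspecific siRNA (filled circles) and from untransfected cells (open triangles) for each target probe set, KHOS at left and U-2OS at right; dashed lines are the 3 SD bounds over all probe sets. In KHOS every circle lies within them and in U-2OS only the dimmer FAS probe set, at 1.38, lies outside.

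A few of these genes stood apart between the control arrays. Between nonspecific siRNA and untransfected cells, 2 target probe sets of KHOS differed by more than 1 log2 unit, or 5.41%, against 2.08% of all probe sets, and 3 of U-2OS did, or 8.11%, against 2.9%. In KHOS these were GDF15, higher by 1.32 with both levels below the limit, and TP53INP1, higher by 1.19 from an untransfected level below it. In U-2OS FAS was lower by 1.80 on its dimmer probe set, DDB2 by 1.32 and GDF15 by 1.24. This FAS probe set and DDB2 had passed the limit through the untransfected U-2OS array alone, so their fall from it is partly set by the limit. The 8.11% is therefore not read against the 2.9%, and with a limit of 8 the U-2OS count was 1. DDB2 was lower in KHOS as well, by 0.35, with all its KHOS levels below the limit. Over both lines limma called no probe set for nonspecific siRNA against untransfected cells, with 1468 or 8.95% of all and 3 targets at an unadjusted p of 0.05.

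With CDK11 siRNA against untransfected cells, 3 target probe sets of KHOS were beyond 1 log2 unit, or 8.11%, against 6.51% of all, and none of U-2OS, against 3.51%. The 3 were GDF15 by 1.91, TP53INP1 by 1.43 and the dimmer FAS probe set by 1.06, the last with all KHOS arrays below the limit. This contrast shares the untransfected arrays with the one above, so GDF15 and TP53INP1, whose untransfected KHOS arrays were low at 5.22 and 5.70, were high in both. The medians over the targets were 0.0012 in KHOS and -0.20 in U-2OS for CDK11 siRNA, and 0.036 in KHOS and -0.13 in U-2OS for nonspecific siRNA.

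**Figure D4:**
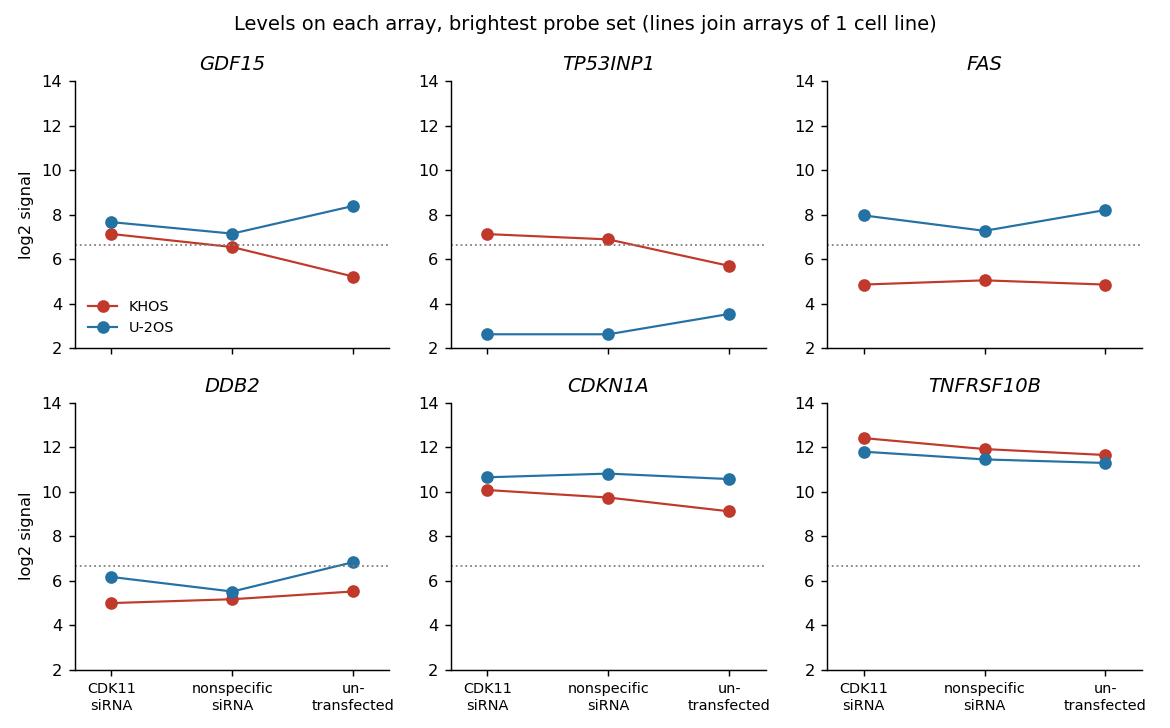
Log2 signal (vertical axis) of the brightest probe set of GDF15, TP53INP1, FAS, DDB2, CDKN1A and TNFRSF10B with CDK11 siRNA, with nonspecific siRNA and untransfected, 1 array per point, KHOS in red and U-2OS in blue; the dotted line is the limit of 6.64. GDF15 reaches 7.13 with CDK11 siRNA and 5.22 untransfected in KHOS, while in U-2OS it is 7.66 with CDK11 siRNA and 8.39 untransfected.

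Other genes of the pathway were counted in the same way. Of 29 regulators of p53, 21 had a probe set above the limit, and of their 45 probe sets 11 were lower in KHOS, 11 higher and 23 did not pass, with a median difference of 0.051. Each direction held 24.4% of them, against 32.6% lower and 39.5% higher among all probe sets. PPP1R13L, which encodes the p53 inhibitor iASPP, had 5.38, 5.16 and 5.53 in KHOS, all below the limit, against 8.69, 8.48 and 8.36 in U-2OS. It was at least 3.65-fold lower in KHOS. RCHY1, a ubiquitin ligase for p53, was lower by 1.34. ATR, the kinase that responds to stalled replication, was higher by 1.37, or 1.14 on its brightest probe set, and CHEK1, a kinase downstream of it, by 1.18, though the brightest CHEK1 probe set was lower by 0.52.

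Of 33 further p53 targets, 20 had a probe set above the limit, and of 31 probe sets 13 were lower in KHOS, 10 higher and 8 did not pass, with a median of -0.20. These were 41.9% lower and 32.3% higher, again beside 32.6% and 39.5% of all probe sets. The 4 genes named by the rule each lay below the limit in 1 line. TGFA, a ligand of the EGF receptor, had 2.63, 2.16 and 2.47 in KHOS against 7.87, 7.48 and 7.97 in U-2OS, at least 2.20-fold lower in KHOS. IGFBP3, which binds insulin-like growth factors, had 9.05, 8.23 and 7.07 in KHOS against 2.59, 2.65 and 2.28 in U-2OS, at least 2.78-fold higher in KHOS. TRIM22, an antiviral ubiquitin ligase, had 10.43, 10.29 and 7.22 in KHOS against 4.64, 4.53 and 5.32 in U-2OS, at least 6.38-fold higher in KHOS, and its untransfected KHOS array stood low. PML, the scaffold of nuclear bodies, had 7.06, 6.85 and 5.86 in KHOS against 3.15, 4.10 and 2.84 in U-2OS on the probe set with the largest difference, and 7.15, 6.64 and 6.10 in KHOS against 5.14, 5.14 and 4.64 in U-2OS on the brightest. No fold is given for PML, as its KHOS means did not pass the limit.

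Of 12 cell cycle genes that p53 lowers through p21 and the DREAM complex, 11 were above the limit, and 9 of 20 probe sets were lower in KHOS, 4 higher and 7 did not pass, with a median of -0.26. These were 45% lower and 20% higher, beside 32.6% and 39.5% of all probe sets. CCNA2 was lower by 1.34, though by only 0.41 on its brightest probe set, where the lines overlapped (adjusted p = 0.026). CDC25C was higher by 1.73 on its single probe set, CENPF by 1.30, or 0.72 on its brightest probe set, and CCNB1 by 2.33, while the brightest CCNB1 probe set differed by 0.016 and did not pass. With CDK11 siRNA against nonspecific siRNA none of these 3 lists had a probe set past the threshold of 3 SD in KHOS. In U-2OS the further targets and the cell cycle genes had 1 each, THBS1 and BUB1, both named after their values were seen. Both were dimmer probe sets with a low nonspecific siRNA array. THBS1 had 7.21 with CDK11 siRNA, 5.66 with nonspecific siRNA and 7.57 untransfected, and for BUB1 the same arrays gave 6.74, 4.78 and 6.57. On the brightest probe sets CDK11 siRNA stood 0.41 above nonspecific siRNA for THBS1 and 0.098 above it for BUB1.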

How the data were processed

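RNA of KHOS and U-2OS cells was measured on 6 arrays, 1 per line and transfection. The authors normalized the arrays with gcrma, which corrects background, normalizes by quantiles and summarises probe sets, and deposited log2 values; versions are not given in the sources used here. Probe sets whose highest log2 value exceeded 6.64 were kept, without the present and absent calls of the study's methods, which were not used here. The platform annotation gave 1 gene symbol to 41097 of the 54675 probe sets, several to 1801 and no symbol to 11777. Gene IDs linked 41043 of those with 1 symbol to the RefSeq table of GRCh38.p14, used for names and promoters; probe sets with several genes were left out, 2 of them on the list.

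The line contrast and the transfection contrasts came from 1 additive limma model (lmFit, eBayes, limma 3.58.1, R 4.3.3) of line and transfection with 2 residual degrees of freedom, two-sided, with Benjamini-Hochberg adjustment at 0.05 over 16409 probe sets. Within a line, differences were scaled by their mean and SD, with a threshold of 3, and carry no p-value. Both steps were tested on simulated data. Full values were given for members with a probe set at least 1 log2 unit apart between the lines for all 3 transfections, beyond 3 SD, or at least 1 unit from both controls, and up to 4 genes of each further list with the largest difference past the test. The members and lists were chosen with earlier results of these data known. Python 3.11.15, pandas 2.3.3, numpy 2.4.6 and matplotlib 3.10.9 were used. Alternatives covered the filter, the probe set rule, centring, the prior, the blocks, the control array, the threshold and arrays left out. The number of arrays limits the precision.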

Additional observations from a re-analysis of the deposited data

Results flagged for a closer look

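For 3 target genes a transfection went with opposite changes in the 2 lines, each larger than 1 SD of all differences in its line. Such changes were not counted over all probe sets, so the number is not read as particular to the targets. These differences between the lines were not tested, since each value rests on 2 arrays. For nonspecific siRNA minus untransfected, GDF15 differed by 1.32 in KHOS and -1.24 in U-2OS. Both of these KHOS levels, 6.54 and 5.22, were below the limit. TP53INP1 differed by 1.19 in KHOS and -0.91 in U-2OS, where all its levels were below the limit. The dimmer FAS probe set differed by 0.98 in KHOS, with all levels below the limit, and -1.80 in U-2OS, where only the untransfected array passed it.

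For CDK11 siRNA minus untransfected, which uses the same untransfected arrays, GDF15 differed by 1.91 in KHOS and -0.73 in U-2OS, and TP53INP1 by 1.43 in KHOS and -0.91 in U-2OS.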

How the results depend on the processing

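The median line difference of -0.85 stayed below 0 in every alternative run. It was -0.13 with no filter, where most probe sets lie near background, -0.98 with the brightest probe set per gene, -1.005 with arrays centred on their median, -0.69 with only probe sets above the limit in both lines, and between -0.83 and -0.76 with 1 transfection left out. Centring moved the median of all probe sets to -0.055, against 0.098 as deposited, and the share of lower calls among all calls to 52.4%, against 45.2%. The 23 lower probe sets became 15 of 24 with 1 probe set per gene, which tests fewer, beside 2960 of all 8881 genes. Of 202 alternative values for 18 named line differences, 193 kept direction and side of the threshold. The call was lost in 7 (DDB2, CDKN1A and the dimmer FAS probe set with no filter, DDB2 without the CDK11 siRNA arrays, MDM2 without any 1 transfection). It was gained in 2 (GDF15, including -0.57 without the untransfected arrays). None reversed, but the direction could hardly change. Filter, prior and block settings leave a difference as it is. Each of the 18 also had 1 sign for every transfection, so leaving 1 out could not reverse it.

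For CDK11 siRNA against nonspecific siRNA, the KHOS median of -0.11 was 0.0098 with no filter and 0.0012 against untransfected cells, when the count of 0 became 1. The U-2OS median of 0.023 was -0.20 against untransfected cells and -0.088 against the mean of both controls. The U-2OS count of 1 became 2 with no filter, with the median absolute deviation or with a threshold of 2, and 0 with a limit of 8, the brightest probe set per gene, the untransfected control, the mean of both controls or the unrounded limit, which was chosen after seeing the data. The median over both lines of 0.019 was between -0.11 and 0.023 with 1 line left out. Over all probe sets, a prior that follows the level called 211 and the filter in both lines 57, 0 of them targets. Against untransfected cells, where limma had called 0, the same alternatives called 575, with 1 target (TNFRSF10B), and 224, with 0 targets.

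Beyond 1 log2 unit, a limit of 8 left 1 target probe set in place of 2 and 3 in KHOS and in place of 3 for nonspecific siRNA in U-2OS. With no filter U-2OS had 6 for nonspecific siRNA and 2 for CDK11 siRNA against untransfected cells, with medians of 0.014 and 0.012. The causes of these changes were not tested. The number of arrays and signals near the limit restrict what can be read for DDB2, FAS, GDF15 and TP53INP1.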

Other observations

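Outside the rule for naming, some further p53 targets and regulators were chosen after their values were seen. SFN, the 14-3-3 sigma protein that holds cells in G2, was lower in KHOS on all 3 of its probe sets, with KHOS minus U-2OS between -2.73 and -2.14. Its brightest probe set had 11.49, 11.85 and 11.84 in KHOS against 13.88, 13.71 and 14.01 in U-2OS. SESN2, a sestrin, differed by -2.09 and -2.25 on its 2 probe sets, and its lowest arrays in KHOS were the untransfected ones, at 6.93 and 4.99. APAF1, the core of the apoptosome, went the other way, with 10.27, 9.63 and 9.87 in KHOS against 7.73, 6.70 and 7.37 in U-2OS, and was higher in KHOS by 2.66 (SE 0.13, limma adjusted p = 0.00011).

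PMAIP1, which encodes the apoptosis activator NOXA, was high in both lines, with 13.21, 13.02 and 12.32 in KHOS against 13.29, 13.27 and 13.35 in U-2OS, and did not pass (adjusted p = 0.11). The brightest probe set of BAX averaged alike in the lines, with 7.14, 7.33 and 7.64 in KHOS against 7.38, 7.05 and 7.68 in U-2OS (adjusted p = 0.998).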
